A study of Mus musculus with 10 samples.

Results

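Leukotriene synthesis was followed through 8 enzyme and partner genes, *Pla2g4a*, *Alox5ap*, *Alox5*, *Alox15*, *Lta4h*, *Ltc4s*, *Mgst2*, and *Mgst3*, in granulocyte-macrophage progenitors (GMPs) of the bone marrow. They are 8 of 51717 genes with a row in the data, and 7 of them were among the 12381 genes abundant enough to test, *Alox15* being the exception. *Ltc4s* was picked on its CPM in the knockout (KO) against WT in these same samples, where it was higher, so its difference is described here and carries no test. The other 7 genes were taken for their place in the pathway, with earlier results of these data known.

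RNA-seq covered 5 WT and 5 *Mpc2* KO samples of male C57Bl6/N mice. The WT genotype was ROSA26 CreER+/-, and the KO cells carried floxed *Mpc2* on both alleles together with the same CreER, so that tamoxifen removes a subunit of the carrier that brings pyruvate into mitochondria. All mice ate tamoxifen chow for 2 wk and were taken at its end, and all were irradiated CD45.1 recipients that had been reconstituted with CD45.2+ donor marrow and given antibiotic water after transplantation. The study made mixed chimeras, in which CD45.1 competitor marrow was added to the donor marrow, and full chimeras. Its methods do not say which kind gave each RNA sample, or the mixing ratio. Full *Mpc2* KO chimeras in the study did not survive 2 wk of tamoxifen chow, which leaves mixed chimeras for the KO samples. CD45.2+ GMPs were sorted, which leaves out CD45.1+ cells of the host and of any competitor marrow. The ROSA26 locus drives CreER in nearly every cell type, so deletion in donor-derived cells was not limited to GMPs. The CD45.1 host and any CD45.1 competitor cells were WT and did not carry the floxed allele or CreER. Each WT library held cells of 1 mouse, whereas KO libraries pooled 2 mice apiece (10 KO mice in all), so the spread within the KO group is a spread between pools. WT mice lacked the floxed allele, and an effect of *Mpc2* deletion cannot be told apart from one of DNA that came with that allele.

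Leukotrienes are signaling lipids that white blood cells make from arachidonate. Cytosolic phospholipase A2 (*Pla2g4a*) frees arachidonate from membranes, the 5-lipoxygenase-activating protein FLAP (*Alox5ap*) presents it to 5-lipoxygenase (*Alox5*), and the product is the unstable leukotriene A4. Leukotriene A4 hydrolase (*Lta4h*) turns this into leukotriene B4, which attracts neutrophils, whereas leukotriene C4 synthase (*Ltc4s*) joins it to glutathione to start the cysteinyl leukotrienes of mast cells, basophils, and eosinophils. *Mgst2* and *Mgst3* encode microsomal enzymes of the same membrane protein family (MAPEG) as LTC4 synthase and FLAP, and *Alox15* encodes a lipoxygenase that acts at another carbon of arachidonate.

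*Lta4h* and *Ltc4s* stand at the fork of the pathway, where their enzymes draw on the same substrate, and their promoter sequences are shown for that reason. Each runs 5′ to 3′ on the strand of its gene, from 250 bases before the RefSeq start to 50 bases of the transcript, on GRCm38.p6.
Ltc4s, chr11:50238483-50238782, minus strand: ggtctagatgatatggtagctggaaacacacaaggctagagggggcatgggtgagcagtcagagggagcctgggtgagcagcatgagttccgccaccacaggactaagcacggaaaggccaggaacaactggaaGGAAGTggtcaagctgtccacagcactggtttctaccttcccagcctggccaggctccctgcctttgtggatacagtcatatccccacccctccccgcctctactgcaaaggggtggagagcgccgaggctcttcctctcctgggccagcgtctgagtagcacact
Lta4h, chr10:93453146-93453445, plus strand: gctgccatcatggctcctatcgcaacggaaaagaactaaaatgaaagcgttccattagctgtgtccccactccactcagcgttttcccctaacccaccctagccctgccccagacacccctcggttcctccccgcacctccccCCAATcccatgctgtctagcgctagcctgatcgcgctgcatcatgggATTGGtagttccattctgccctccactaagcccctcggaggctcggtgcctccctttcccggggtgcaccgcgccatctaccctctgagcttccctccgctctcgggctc
Capitals mark exact matches, on either strand, to any of 5 short motifs that were searched. They were CCAAT, known as the CCAAT box, and the GC box, spelled GGGCGG in this search. The TATA box was searched as TATAAA, which is the usual consensus. An ETS core was taken to be GGAAGT, and for GATA factors the letters were AGATAA. The *Ltc4s* window held 1 match, an ETS core 116 bases before the start, a motif found in 23.8% of all 32851 RefSeq mouse promoters of this length. The *Lta4h* window held 2 CCAAT boxes, at 107 and 60 bases before the start, and 37.4% of all promoters hold at least 1. Neither window held a TATA box (13.6% of all promoters), a GC box (35.7%), or a GATA site (11.2%). Of the other members with an entry, *Alox5* and *Mgst3* held a GC box, and *Mgst2* and the second of the *Pla2g4a* starts held a CCAAT box, a TATA box, and an ETS core. A match describes letters and does not show that a factor binds. *Alox5ap* and *Alox15* had no entry.

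Samples totaled 14033776 to 19745405 estimated reads, over which 3 reads corresponded to 0.147 to 0.233 CPM (reads scaled to a common library total, after TMM normalization). *Mpc2* itself separated the groups, at 61.0 to 117 CPM in WT and 17.1 to 43.9 CPM in KO samples (log2 fold change −1.46, edgeR adjusted p = 0.0156). GMP genes were present in every sample, with *Mpo* at 51590 to 69040 CPM in WT and 31830 to 52800 CPM in KO samples. KO replicate 3 had the lowest sum of the 10 GMP markers, 53760 CPM. The other KO samples had 70530 to 92070 CPM and the WT samples 90130 to 127400 CPM. Member values are given with and without KO replicate 3 where it bears on them. Across all tested genes, edgeR's quasi-likelihood test called 41 (0.331%) at an adjusted p of 0.05, and 301 (2.43%) had no overlap between the groups.

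The level of *Ltc4s* was low in WT GMPs and higher in all 5 KO samples. In WT replicates 1 to 5 it was 1.42, 1.66, 1.43, 1.40, and 1.08 CPM. In KO replicates 1 to 5 it was 2.25, 2.73, 3.67, 4.69, and 3.92 CPM. The groups did not overlap, KO replicate 4 being the highest and KO replicates 1 and 2 the lowest of their group. The means were 1.40 ± 0.209 and 3.45 ± 0.969 CPM (SD, n = 5), a ratio of 2.47 and a fitted log2 fold change of 1.30. These values rest on few reads, 18 to 30 in a WT sample and 32 to 77 in a KO sample. Without KO replicate 3 the log2 fold change was 1.28.

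The *Ltc4s* reads came mostly from 1 of the 7 annotated transcripts, a protein-coding one of 649 bases. It held 69.8% to 100% of the gene's estimated reads in WT samples and 67.4% to 93.1% in KO samples. The split is an estimate by Salmon from these few reads. An antisense gene, *Gm26542*, overlaps *Ltc4s*, and it was at 0.233 to 0.599 CPM in WT and 0.210 to 0.792 CPM in KO samples. Because the library kit does not mark strand, reads in the shared stretch cannot be assigned to either gene with certainty. On GRCm38 *Ltc4s* lies at chr11:50236461-50238616 on the minus strand, on another chromosome than *Mpc2*.

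**Figure D1:**
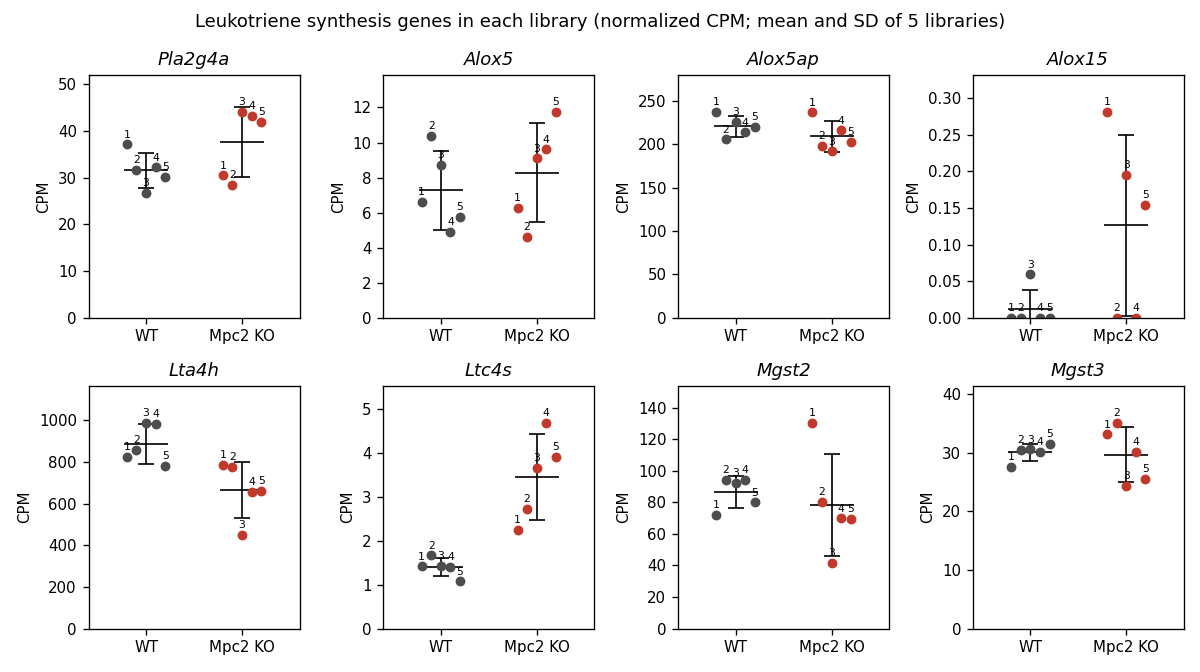
Normalized CPM of the 8 genes in each of the 5 WT (grey) and 5 Mpc2 KO (red) samples, with the replicate number above each point; lines and bars are the mean and SD, and each panel has its own axis from 0. Ltc4s runs from 1.08 to 1.66 CPM in WT and from 2.25 to 4.69 CPM in KO samples with no overlap, whereas the groups overlap in the other 7 genes.

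Of the 6 other members tested, edgeR called 0, where it called 0.331% of all tested genes (0.121% as higher and 0.210% as lower in the KO). DESeq2 also called 0 of them, against 1.09% of all genes to which it gave an adjusted p. *Lta4h* was the 1 member with an unadjusted p under 0.05, a level that 10.2% of all tested genes reached. In no tested member other than *Ltc4s* were the groups free of overlap, as they were in 2.43% of all tested genes (1.11% higher and 1.32% lower in the KO). Their log2 fold changes were positive for 2 and negative for 4, with a median of −0.049 against −0.002 over all tested genes.

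Arachidonate release was represented by *Pla2g4a* (chr1:149829618-149961290, minus strand), the phospholipase that supplies 5-lipoxygenase. It was 37.2, 31.7, 26.8, 32.3, and 30.2 CPM in WT replicates 1 to 5. KO replicates 1 to 5 had 30.5, 28.5, 44.1, 43.3, and 42.1 CPM. KO replicates 3, 4, and 5 were above every WT sample, and KO replicates 1 and 2 were inside the WT range. The log2 fold change was 0.26 ± 0.13 (SE; 95% interval −0.02 to 0.54). The edgeR test gave an unadjusted p of 0.0703 and an adjusted p of 0.530, so the gene was not called. The gene shares chromosome 1 with *Mpc2* but starts 15.5 Mb away.

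The 5-lipoxygenase step showed no called difference. *Alox5* (chr6:116410077-116461178, minus strand) was 6.61, 10.4, 8.73, 4.90, and 5.75 CPM in WT replicates 1 to 5. In KO replicates 1 to 5 it was 6.26, 4.62, 9.09, 9.62, and 11.8 CPM. Both groups spanned much the same range, with an SD of 30.9% of the mean in WT and 34.2% in KO samples. The log2 fold change was 0.19 ± 0.25 (SE; 95% interval −0.35 to 0.72; edgeR adjusted p = 0.861).

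*Alox5ap* (chr5:149264767-149288153, plus strand), the gene for FLAP, varied little in either group. It was 237, 206, 226, 214, and 220 CPM in WT replicates 1 to 5. The KO values, in the order of replicates 1 to 5, were 237, 198, 192, 216, and 203 CPM. KO replicates 2, 3, and 5 were below every WT sample, and KO replicates 1 and 4 were inside the WT range. The log2 fold change was −0.08 ± 0.07 (SE; 95% interval −0.22 to 0.07; edgeR adjusted p = 0.765). Its main protein-coding transcript held 89.9% to 96.1% of its reads over the 10 samples.

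*Alox15* (chr11:70344152-70352031, minus strand) was at or near the floor of detection and was not tested. WT replicate 3 had 1 estimated read and the other 4 WT samples had 0. KO replicates 1, 3, and 5 had 4, 4, and 3 reads, and KO replicates 2 and 4 had 0. No difference can be read from counts of this size.

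*Lta4h* (chr10:93453411-93484875, plus strand), the gene of the leukotriene B4 branch, was the most abundant of the 8 genes. It was 824, 859, 988, 984, and 779 CPM in WT replicates 1 to 5. In KO replicates 1 to 5 it was 786, 775, 449, 655, and 662 CPM. All 5 KO samples were below the WT median, and the groups overlapped through a single pair of samples, KO replicate 1 at 785.7 CPM and WT replicate 5 at 779.4 CPM. The means were 887 ± 94.8 and 665 ± 136 CPM (SD, n = 5), a ratio of 0.750. The log2 fold change was −0.42 ± 0.13 (SE; 95% interval −0.70 to −0.13), with an unadjusted p of 0.00688 and an adjusted p of 0.262 by edgeR. DESeq2 gave an adjusted p of 0.0910, and edgeR without the filter on low counts gave 0.0241, the 1 alternative in which it passed the threshold. Without KO replicate 3, which had the lowest value, the log2 fold change was −0.30 (edgeR adjusted p = 0.408).

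Beside *Ltc4s*, the glutathione branch held *Mgst2*, whose enzyme can also conjugate leukotriene A4. *Mgst3*, of the same protein family, was read with it. *Mgst2* (chr3:51660360-51682677, plus strand) was 72.0, 94.2, 92.4, 94.4, and 80.2 CPM in WT replicates 1 to 5. The KO samples, again 1 to 5, had 131, 80.3, 41.8, 69.8, and 69.5 CPM. KO samples lay on both sides of the WT range, with replicate 1 above and replicates 3, 4, and 5 below every WT sample. The SD was 11.6% of the mean in WT and 41.4% in KO samples. The log2 fold change was −0.15 ± 0.22 (SE; 95% interval −0.61 to 0.32; edgeR adjusted p = 0.877), and it was 0.015 without KO replicate 3.

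*Mgst3* (chr1:167371966-167393841, minus strand) varied little in WT samples, with an SD of 4.96% of the mean, and more in KO samples (15.7%). It was 27.6, 30.4, 30.6, 30.1, and 31.6 CPM in WT replicates 1 to 5. In KO replicates 1 to 5 it was 33.1, 35.1, 24.4, 30.1, and 25.6 CPM. KO samples lay on both sides of the WT range, with replicates 1 and 2 above and replicates 3 and 5 below every WT sample. The log2 fold change was −0.02 ± 0.10 (SE; 95% interval −0.24 to 0.19; edgeR adjusted p = 0.966), and its sign changed with the scaling, to 0.05 with library size alone. *Mgst3* lies 1.89 Mb from *Mpc2*, inside the stretch where a floxed line could differ from WT mice. Of the 52 tested genes within 5 Mb of *Mpc2*, edgeR and DESeq2 each called 0, and 4 (7.69%) had an unadjusted edgeR p under 0.05.

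Compared per transcript length, in TPM, the genes covered more than 2 orders of magnitude. In WT samples *Lta4h* was highest at 442 ± 24.8 TPM. *Mgst2* (223 ± 8.91 TPM) and *Alox5ap* (217 ± 18.2 TPM) came next, and their ranges overlapped. *Mgst3* followed at 28.7 ± 1.80 TPM and *Pla2g4a* at 9.40 ± 1.56 TPM. *Ltc4s* (3.09 ± 0.512 TPM) and *Alox5* (2.28 ± 0.547 TPM) were the lowest apart from *Alox15*, with overlapping ranges, although *Ltc4s* was above *Alox5* in 5 of 5 samples.

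In KO samples *Lta4h* was again highest (354 ± 65.1 TPM), and *Alox5ap* and *Mgst2* again overlapped. *Ltc4s*, at 7.72 ± 2.21 TPM, now overlapped in range with *Pla2g4a* (11.7 ± 2.62 TPM) and lay clear of *Alox5* (2.62 ± 0.952 TPM). In each of the 5 KO samples *Pla2g4a* was still above *Ltc4s*. TPM levels thus placed the hydrolase and FLAP far above the lipoxygenase in both groups.

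**Figure D2:**
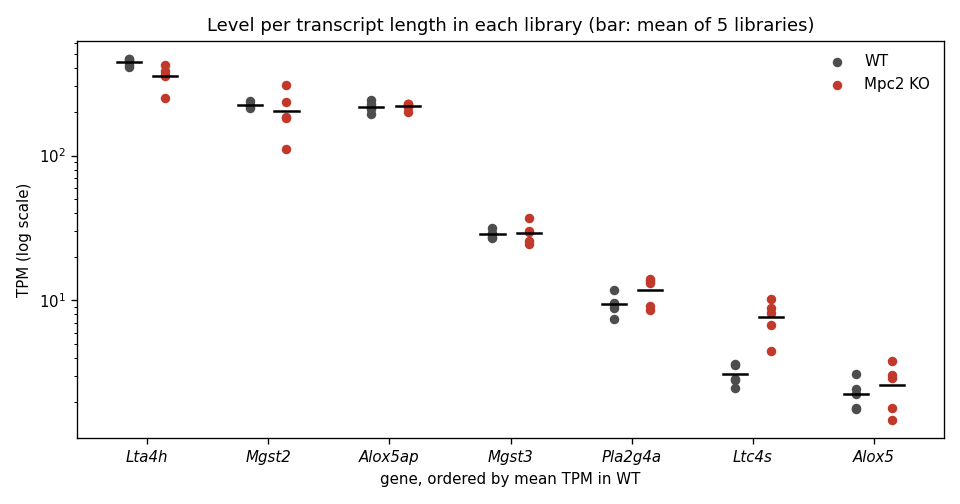
TPM, which corrects for transcript length, of the 7 tested genes on a log axis, in the order of their WT means; each point is a sample of the WT (grey) or Mpc2 KO (red) group and each bar a mean of 5. Lta4h is highest in both groups, and Ltc4s overlaps Alox5 in WT (means 3.09 and 2.28 TPM) and Pla2g4a in KO samples (7.72 and 11.7 TPM).

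Ratios of TPM within a sample set pairs of the genes side by side. *Lta4h* exceeded *Ltc4s* in TPM by a factor of 116 to 165 in WT samples (median 161). In KO samples the factor was 30.2 to 85.8 (median 40.4). The groups did not overlap, and since the ratio holds *Ltc4s*, which was chosen for its level, this is a description. *Lta4h* over *Alox5*, a ratio without *Ltc4s*, overlapped between the groups, at 136 to 263 in WT and 85.2 to 283 in KO samples. *Alox5ap* over *Alox5* overlapped as well, at 67.9 to 127 in WT and 59.6 to 134 in KO samples.

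The KO samples were not alike across the pathway. KO replicates 3, 4, and 5 had the 3 highest values of *Ltc4s* and *Pla2g4a* among the 10 samples, and the 3 lowest values of *Lta4h* and *Mgst2*. KO replicates 1 and 2 were inside the WT range for *Pla2g4a* and inside or just below it for *Lta4h*, while for *Ltc4s* they were above every WT sample. The labels give no batch, date, or other feature that sets these samples apart, so no value within a batch can be given.

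**Figure D3:**
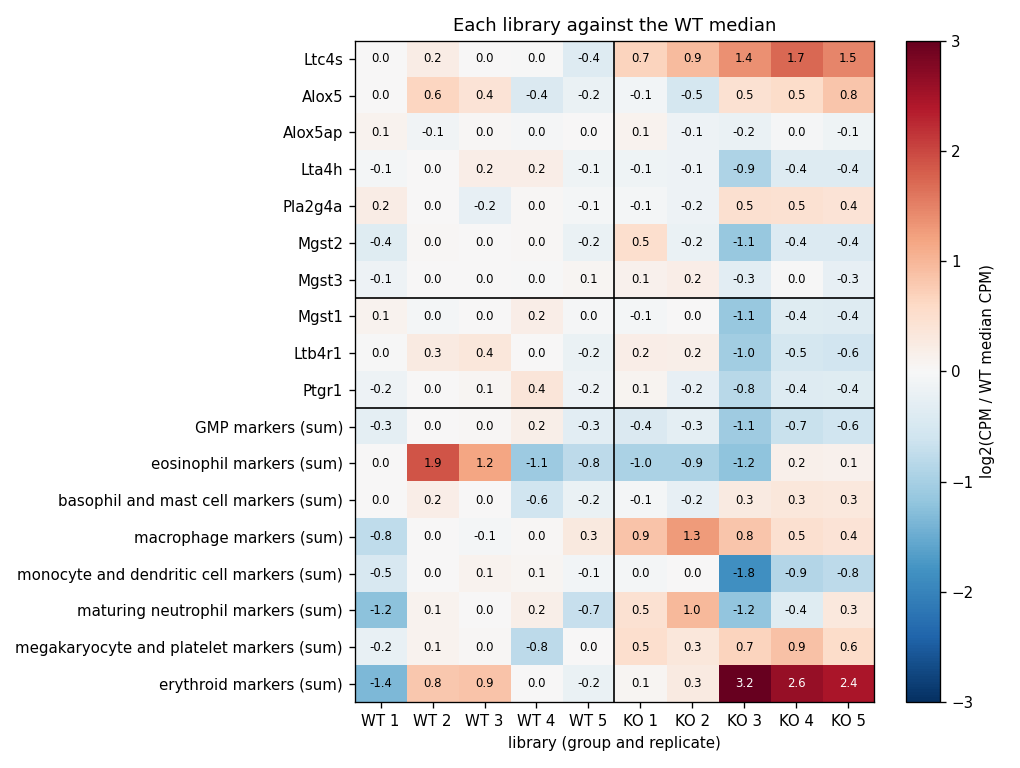
Heat map of the log2 ratio of each sample's CPM to the WT median, for the 7 tested members (top), 3 other pathway genes (middle), and summed markers of 8 cell types (bottom); columns are the 5 WT and 5 KO samples, red is higher and blue lower. KO replicates 3 to 5 are at 1.4 to 1.7 for Ltc4s, −0.9 to −0.4 for Lta4h, and 2.4 to 3.2 for the erythroid markers. For the erythroid markers KO replicates 1 and 2 are at 0.1 and 0.3. The monocyte and dendritic cell markers are at −1.8 to −0.8 in KO replicates 3 to 5. The 3 other pathway genes, Mgst1, Ltb4r1, and Ptgr1, do not stand for the whole pathway. The most abundant genes of the other groups, Anxa1, Gpx4, Abcc4, and Ptges3, are not shown (log2 fold changes −0.28, −0.07, −0.12, and 0.03).

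Markers of other cells that make leukotrienes, or that could pass the gate, were read in the same samples. In bulk RNA, fewer cells of a type and less RNA per cell cannot be told apart. Over all genes the shares to set beside each count were 0.331% called by edgeR, 1.09% by DESeq2, and 10.2% at an unadjusted edgeR p under 0.05. Basophils and mast cells are the cells best known for *Ltc4s*. Their markers summed to 285 to 489 CPM in WT and 360 to 541 CPM in KO samples. KO replicates 3, 4, and 5, at 519, 541, and 531 CPM, were above every WT sample. KO replicates 1 and 2, at 412 and 360 CPM, were inside the WT range. EdgeR called 0 of the 9 tested genes and DESeq2 called 1. At an unadjusted edgeR p under 0.05, 2 were higher and 1 was lower in the KO. Eosinophil markers summed to 34.4 to 273 CPM and 31.9 to 81.9 CPM, with 0 of 6 called by edgeR or DESeq2, 2 higher and 2 lower at an unadjusted edgeR p under 0.05, and *Ear1* at the floor.

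Macrophage markers did separate the groups in sum, at 20.9 to 43.7 CPM in WT and 47.2 to 85.7 CPM in KO samples. Of the 9 tested, 6 were higher and 0 lower at an unadjusted edgeR p under 0.05. *Adgre1* had a log2 fold change of −0.39 (edgeR adjusted p = 0.569). *Vcam1* and *Slc40a1* were at 0.175 and 0.07 (edgeR adjusted p = 0.862 and 0.949). The complement genes of resident macrophages *C1qa*, *C1qb*, and *C1qc* were the 3 of 9 tested macrophage markers that edgeR called (DESeq2 called 5), all higher in the KO (log2 fold changes 1.25, 1.35, and 1.59; edgeR adjusted p = 0.0406, 0.0160, and 0.0383). Megakaryocyte and platelet markers summed to 9.79 to 18.4 CPM and 21.6 to 31.1 CPM, also without overlap, with 0 of 3 called by edgeR, 1 by DESeq2, and 3 higher at an unadjusted edgeR p under 0.05. Erythroid markers summed to 9.11 to 42.3 CPM in WT samples, to 24.4 and 28.0 CPM in KO replicates 1 and 2, and to 208, 143, and 126 CPM in KO replicates 3, 4, and 5, with 0 of 7 called by edgeR or DESeq2 and 5 higher at an unadjusted edgeR p under 0.05.

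Markers of the GMP itself and of the monocyte and dendritic path were mixed in direction, and most of those with a small p were lower in the KO. The 10 GMP markers summed to 90130 to 127400 CPM in WT and 53760 to 92070 CPM in KO samples, with 0 called by edgeR, 2 by DESeq2, and 7 lower at an unadjusted p under 0.05. *Fcgr3*, whose product CD16 is part of the GMP gate, was 357 to 456 CPM in WT and 153 to 318 CPM in KO samples without overlap (log2 fold change −0.65, edgeR adjusted p = 0.107). *Cd34* and *Kit* had log2 fold changes of 0.25 and 0.08 (edgeR adjusted p = 0.687 and 0.852). Monocyte and dendritic cell markers summed to 2767 to 4128 CPM in WT and 1084 to 3860 CPM in KO samples. KO replicates 3, 4, and 5, at 1084, 2113, and 2223 CPM, were below every WT sample. KO replicates 1 and 2, at 3730 and 3860 CPM, were inside the WT range. Of the 10 tested, edgeR called 1, *Mgl2*, a lectin receptor gene (log2 fold change −1.09, edgeR adjusted p = 0.00973), DESeq2 called 3, and 6 were lower and 1 higher at an unadjusted edgeR p under 0.05. The higher one was *Flt3*, a cytokine receptor gene of early progenitors and dendritic cells named after its values were seen, at 10.2 to 15.2 CPM in WT and 18.2 to 37.8 CPM in KO samples without overlap (log2 fold change 0.98, edgeR adjusted p = 0.0597). *Cd209a* was at the floor. Maturing neutrophil markers overlapped, at 207 to 549 CPM and 213 to 943 CPM (0 of 10 called by edgeR or DESeq2, 6 higher at an unadjusted p under 0.05), and the lymphoid genes *Pax5*, *Il7r*, and *Rag1* were at the floor. The part of any of these cells in the levels of *Ltc4s* or the other members was not tested.

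The rest of the pathway was read from 52 further genes, of which 30 were abundant enough to test and 22 had a mean under 0.5 TPM. EdgeR called 0 of the 30 (0.331% of all tested genes). DESeq2 called 0 of the 37 to which it gave an adjusted p (1.09% of all such genes). None of the 30 was free of overlap between the groups (2.43% of all tested genes were). With so few genes, counts of 0 are close to these shares. An unadjusted edgeR p under 0.05 was found for 7 of the 30 (10.2% of all tested genes), 2 higher and 5 lower in the KO. Their log2 fold changes were positive for 13 and negative for 17, with a median of −0.01. 

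**Figure D4:**
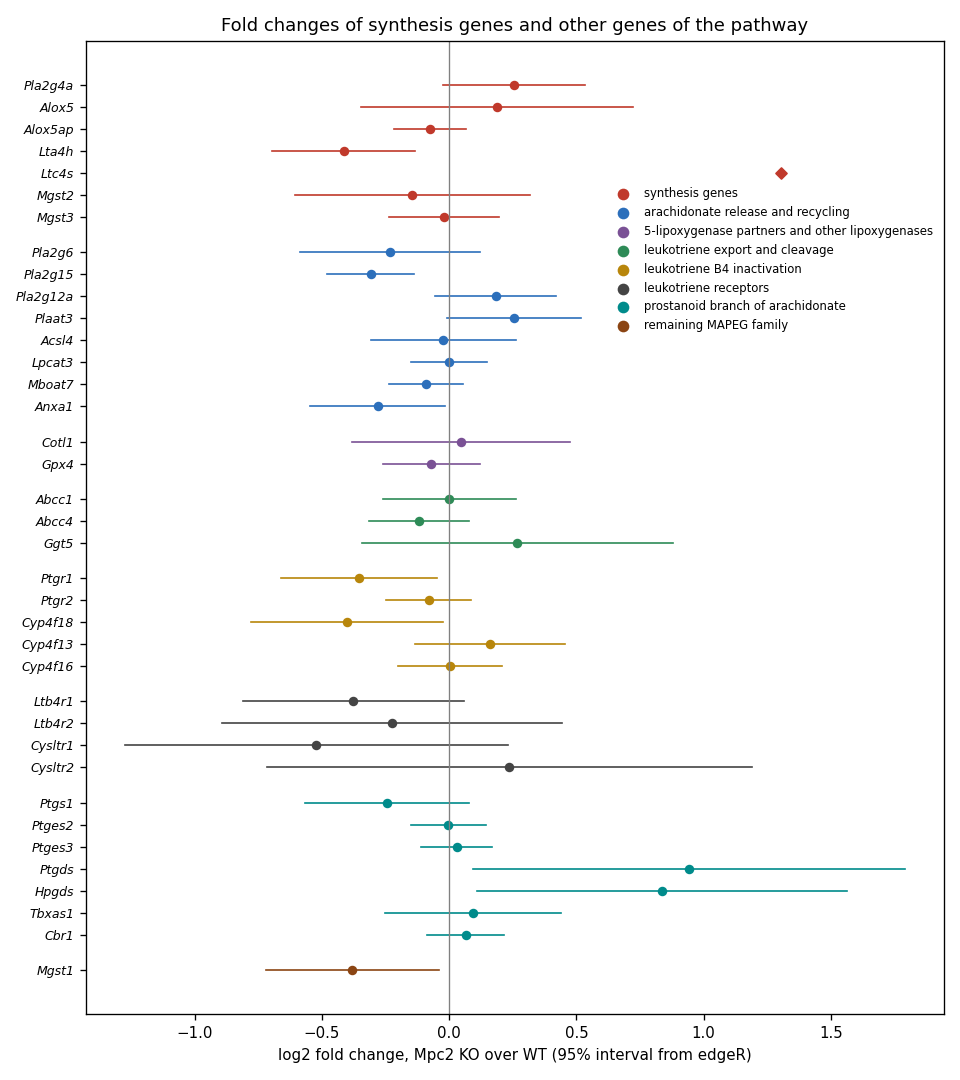
Log2 fold change of Mpc2 KO over WT for the 7 tested synthesis genes (red) and 30 tested genes of the rest of the pathway, colored by their step; bars are 95% intervals from edgeR, and Ltc4s (diamond) has none because it was chosen for this difference. Ltc4s, which carries no test, is at 1.30, and the 6 other synthesis genes lie between −0.42 and 0.26. EdgeR called 0 of these 6 and 0 of the 30 genes of the rest of the pathway.

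Among 13 genes of arachidonate release and recycling, 8 were tested and 2 were lower at an unadjusted p under 0.05. *Anxa1*, which encodes an inhibitor of phospholipase A2 signaling, had the highest level, at 414 ± 59.9 CPM in WT and 341 ± 60.0 CPM in KO samples (log2 fold change −0.28, edgeR adjusted p = 0.452). *Pla2g15*, a lysosomal phospholipase gene named after its values were seen, had the smallest p of the list (log2 fold change −0.31, edgeR adjusted p = 0.176). It was 24.7 to 30.7 CPM in WT and 20.9 to 25.02 CPM in KO samples.

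Partners and other lipoxygenases were mostly silent, with 5 of 7 under 0.5 TPM. *Gpx4*, which reduces the lipid hydroperoxides that lipoxygenases need and make, was the most abundant gene of this group at 724 TPM in WT and 703 TPM in KO samples. Its log2 fold change was −0.07 (edgeR adjusted p = 0.853). The second tested gene of the group, *Cotl1*, encodes a binding partner of 5-lipoxygenase, and its log2 fold change was 0.05.

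Leukotriene export and cleavage had 8 genes, of which 3 were tested. The transporter gene *Abcc4* was at 17.3 ± 1.68 CPM in WT and 15.9 ± 1.13 CPM in KO samples (log2 fold change −0.12, edgeR adjusted p = 0.725). *Abcc1*, which encodes the main exporter of leukotriene C4, had means of 14.0 CPM in both groups and a log2 fold change of 0.00. *Ggt5*, the peptidase gene for the step from leukotriene C4 to D4, was low at 0.712 TPM in WT and 0.714 TPM in KO samples.

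Of 6 genes that inactivate leukotriene B4, 5 were tested and 2 were lower at an unadjusted p under 0.05. *Ptgr1*, a leukotriene B4 dehydrogenase gene, was the most abundant, at 177 ± 27.5 CPM in WT and 139 ± 31.4 CPM in KO samples (log2 fold change −0.35, edgeR adjusted p = 0.416). *Cyp4f18*, whose product oxidizes leukotriene B4 in myeloid cells, was 7.93 to 8.79 CPM in WT and 4.87 to 10.1 CPM in KO samples (log2 fold change −0.40, edgeR adjusted p = 0.451). Of these 52 further genes it was the 1 that edgeR called in any alternative, and that was without KO replicate 2.

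Receptors were led by *Ltb4r1*, the high-affinity leukotriene B4 receptor gene. It was 45.1 to 65.6 CPM in WT and 25.2 to 59.5 CPM in KO samples, with KO replicates 3, 4, and 5 below every WT sample and replicates 1 and 2 inside the WT range. Its log2 fold change was −0.38 ± 0.20 (SE; edgeR adjusted p = 0.552). The receptors for cysteinyl leukotrienes were low, *Cysltr1* at 0.622 TPM in WT and 0.515 TPM in KO samples and *Cysltr2* at 0.667 and 0.913 TPM. *Gpr17* had 0 reads in all 10 samples.

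On the prostanoid branch, which uses the same arachidonate, 7 of 11 genes were tested. *Ptges3*, a cochaperone gene also listed as a prostaglandin E synthase, was the most abundant, with a log2 fold change of 0.03 (edgeR adjusted p = 0.922). The 2 pathway genes that were higher at an unadjusted p under 0.05 were both prostaglandin D synthase genes, named after their values were seen. *Ptgds* averaged 1.76 ± 0.868 CPM in WT and 3.48 ± 1.64 CPM in KO samples (edgeR adjusted p = 0.428). *Hpgds* averaged 0.798 ± 0.289 CPM and 1.42 ± 0.458 CPM (edgeR adjusted p = 0.416), and neither passed the threshold. The remaining MAPEG family added *Mgst1*, a glutathione transferase gene, at 128 ± 8.90 CPM in WT and 98.2 ± 26.8 CPM in KO samples (log2 fold change −0.38, edgeR adjusted p = 0.425).

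Genes with a pattern like that of *Ltc4s* were ranked by Pearson's r of log2(CPM + 1) over the 10 samples, among the 9745 tested genes whose counts averaged 50 or more. The values are descriptions without a p, because the points share libraries and the genes were picked as the highest. The first 5 were *Vezf1* (r = 0.922), *2310061I04Rik* (0.915), *Alg8* (0.914), *Gnb4* (0.913), and *Smim5* (0.908). *Gnb4*, a G protein beta subunit gene, was at 2.10 to 3.92 CPM in WT and 4.36 to 10.6 CPM in KO samples. It was the 1 of these 5 whose groups did not overlap (2.43% of all tested genes had no overlap). Because *Ltc4s* was picked for being higher in the KO, this ranking favors genes higher in the KO, and the lack of overlap is only a description.

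When the group means were removed first, other genes came out on top. The 5 highest were *Zbtb9* (r = 0.964), *Klf10* (0.954), *Trim14* (0.941), *Fignl1* (0.931), and *Nup35* (0.928). Over the same deviations the members split, with *Pla2g4a* at 0.742 and *Alox5* at 0.720, and with *Mgst3* at −0.573, *Mgst2* at −0.545, *Alox5ap* at −0.369, and *Lta4h* at −0.368 (n = 10 for each).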

How the data were processed

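CD45.2+ GMPs of 5 WT and 5 recent *Mpc2* KO samples were compared. The authors isolated RNA with the NucleoSpin RNA XS kit, made SMARTseq V4 libraries, sequenced paired-end 150 bp reads on a NovaSeq, and quantified transcripts of Gencode M27 with Salmon (version 1.5.1 in the submitters' processing notes). The deposited files of each sample list transcripts with estimated counts (raw Salmon output), TPM, and effective lengths. The deposited table of the authors' own DESeq2 comparison (2.11.40.6; mean count, log2 fold change, SE, statistic, p-value, and adjusted p-value) was not used. SMARTseq does not mark strand.

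Transcripts were matched to GENCODE M21, which is on GRCm38 and predates the authors' annotation, by identifier without version. Of 140789 transcripts, 137161 matched, and the other 3628 held 0.348% to 0.390% of a sample's reads and were left out. Estimated counts were summed per gene and rounded, and TPM was summed. The test was edgeR 4.0.16 (limma 3.58.1, R 4.3.3), quasi-likelihood, after TMM and filterByExpr (minimum count 10), fitted to condition alone, and adjusted by Benjamini-Hochberg over 12381 genes at 0.05. CPM are TMM-normalized. A floor of 3 counts covers counting error only, as amplified cDNA has no molecular identifiers. No pair of replicates held the same counts within sampling noise (chi-square per gene 6.80 to 46.0), as a library deposited in duplicate would, and they are labeled as biological. The fit was tested on simulated data. Promoters came from RefSeq, with entries for 6 of 8 members. Alternatives were 3 normalizations, 2 filters, DESeq2 1.42.0, robust dispersions, an offset for effective length, a replicate block, limma on log2 TPM with pseudocounts of 1 and 0.1 (mean TPM of at least 1), protein-coding transcripts only, and leaving out each sample. Python 3.11.15, numpy 2.4.6, pandas 2.3.3, scipy 1.17.1, and matplotlib 3.10.9 were used.

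The members and lists were chosen with earlier results of these data known. The genes named are the members, *Mpc2*, the most abundant gene of each pathway group, any pathway gene called or free of overlap, the 5 genes most like *Ltc4s* by each measure, and marker genes called or at the floor, except 1 marker that is not reported here. Other genes named were chosen after their values were seen. *Plaat3* was found under an older symbol, and of 2 identifiers for *Dpep2* the one with more reads was used.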

Additional observations from a re-analysis of the deposited data

Results flagged for a closer look

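Single samples that lay far from the rest of their group were sought by Dixon's test in 30 groups of 5 samples, of which chance alone would mark about 1.5. There were 2. *Alox15* was at 0.0594 CPM in WT replicate 3, which is 1 estimated read, and at 0 in the other 4 WT samples. *Gpx4* was at 507 CPM in WT replicate 5 and between 594 and 604 CPM in the other 4 WT samples.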

How the results depend on the processing

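The number of genes called in all was 41 in the reported test. It was 206 without a filter on low counts, 156 with DESeq2, 26 with limma on log2(TPM + 0.1), and 19 with protein-coding transcripts only. Leaving out a sample gave 25 to 91, with 91 without KO replicate 2, 25 without KO replicates 3 or 4, and 26 without WT replicate 3. Calls higher and lower in the KO were 15 and 26, against 26 and 20 with library size alone, 110 and 96 without the filter, 77 and 79 with DESeq2, and 4 and 16 with the replicate block. The replicate block gave 20 calls, 18 of them shared with the 41. Samples with the same number did not deviate together (r of −0.174 to 0.0366), and none correlated best with its own number. The block made no call among the other pathway genes or the 6 tested members other than *Ltc4s*.

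Calls among the other pathway genes were 0 in every alternative that kept all 10 samples, and 0 to 1 when a sample was left out. The *Ltc4s* log2 fold change was 1.06 to 1.38 over the alternatives and 1.17 to 1.42 when a sample was left out; the lowest was on log2(TPM + 1), a scale that understates changes of low genes, and too few reads kept it out of the setting with a mean count of 50. For *Lta4h* the range was −0.43 to −0.34, and −0.48 to −0.30 when a sample was left out (edgeR adjusted p = 0.140 to 0.472 in the latter). Values near 0 changed sign. *Mgst3* was 0.048 with library size alone, 0.019 with either limma setting, and −0.089 to 0.043 when a sample was left out (0.043 without KO replicate 3, 0.029 without KO replicate 5). *Alox5ap* was 0.012 with either limma setting, and *Mgst2* was −0.408 to 0.015 when a sample was left out, the highest without KO replicate 3. The cause of these shifts was not tested. Low read numbers limit the values of *Ltc4s*, *Alox15*, and the low receptors.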
